A study of Bos taurus with 4 samples.

Results

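Collagens, laminins and integrins were taken as every probe of the array whose gene symbol starts with COL, digits and A, with LAMA, LAMB or LAMC and a digit, or with ITGA or ITGB and further characters. This rule gave 93 of 43794 probes and 78 of 15229 gene symbols. They were 40 collagen genes (49 probes), 8 laminin genes (10 probes) and 30 integrin genes (34 probes). Of the 78 genes, 72 encode a collagen chain, a laminin chain or an integrin subunit. The other 6 share only the first letters of the name: the ceramide transfer protein gene COL4A3BP, the integrin-binding protein genes ITGB1BP1 and ITGB1BP2, the kinase gene ITGB1BP3, the centromere protein gene ITGB3BP and the integrin beta-like gene ITGBL1. The rule uses symbols and no measured value.

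Collagens are triple helices of 3 alpha chains that form fibrils, sheets or the network of basement membranes. Laminins are cross-shaped trimers of an alpha, a beta and a gamma chain, and they build the basement membrane together with type IV collagen. Integrins are pairs of an alpha and a beta subunit that span the cell membrane, bind laminin, collagen or fibronectin outside the cell and anchor the actin skeleton inside it. In mammalian blastocysts a basement membrane underlies the trophectoderm, and integrins take part in the attachment of the trophectoderm to the uterus.

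The question was which transcripts of in vitro produced bovine embryos differ after vitrification, which cools the embryo to a glass without ice. Morulae from abattoir oocytes, matured and fertilized in vitro with thawed semen of a dairy bull, were either vitrified on cryotops, held in liquid nitrogen for 24 h, warmed and cultured, or cultured on without freezing as controls. Expanded blastocysts of both groups were pooled for RNA (beef breed and 7 embryos per pool by the labels, 5 to 7 by the Methods), and the RNA was amplified before labeling. Each of the 4 arrays held 1 vitrified and 1 control pool, with the vitrified pool in Cy5 on arrays 1 and 2 and in Cy3 on arrays 3 and 4. The labels date collection to day 7 after fertilization and the morulae to day 6, whereas the Methods collect morulae on day 7. The labels also mark both groups as cryopreserved, whereas the control is unfrozen by the Methods. The assignment of fertilization cycles to arrays is not given in the sources used here.

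Ratios are log2 values of vitrified over control, normalized within and between arrays, and the log2 fold change is their mean over the 4 arrays, with the SE from limma. A reading is 1 dye on 1 array, and it was above background when its spot exceeded the mean of the negative control spots by 2 SD. Per dye and array, 60.1% to 67.3% of the probes exceeded this level, and the ratios of different arrays had correlations across probes from -0.15 to 0.18. The tissue labels were checked with markers. All 7 trophectoderm, 5 inner cell mass and 4 hypoblast markers on the array reached 4 or more of the 8 readings above background, and so did 5 of 7 cumulus cell, 3 of 5 fibroblast and 4 of 5 blood cell markers (not HAS2, FST, DCN, PDGFRB and ITGB2). In pooled embryos, fewer cells of a type and less RNA per cell cannot be told apart.

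Of the 93 probes, 59 (63.4%) had 4 or more of the 8 readings above background and were tested, against 66.1% of all probes. They covered 52 genes, 29 collagens, 6 laminins and 17 integrins. Of the 59 probes, 29 were above background in all 8 readings, and 13 of the 93 were in none. The 26 genes that were not tested had at most 3 readings above background. Among them were 11 collagen genes, such as COL2A1 of cartilage and COL6A1 and COL6A3 of type VI collagen, and the laminin genes LAMA4 and LAMC3. The other 13 were integrin genes, among them ITGAV, whose product pairs with several beta subunits and which was above background in 3 readings, and ITGA3, a laminin receptor subunit, in 2 vitrified readings and no control reading. Of the integrin genes known from white blood cells, ITGAL, ITGAM, ITGB2 and ITGB7 were not tested, while ITGAD and ITGAE were above background in all 8 readings.

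Single genes of the 3 families had differences in both directions, and 0 passed the adjusted p. At an unadjusted p under 0.05, 3 of the 59 probes were higher in vitrified blastocysts (5.08%, against 3.31% of all tested probes) and 5 were lower (8.47%, against 4.36%). The higher ones were COL9A2, COL27A1 and COL21A1. The lower ones were COL1A2, LAMB2, ITGA5, COL4A5 and COL28A1. Of these, LAMB2, COL4A5 and COL28A1 had all 4 control but only 1, 2 and 3 vitrified readings above background. They met the filter by control readings alone, so the lower share is not independent of the filter. When all 8 readings had to be above background, COL1A2 and ITGA5 were the lower ones left. With the same direction on all 4 arrays, 5 of the 59 probes were higher, against 2062 of all 28944 tested probes (7.12%). In the same way 7 of the 59 were lower, against 2115 of 28944 (7.31%). With limma and Benjamini-Hochberg adjustment over 28944 probes, 0 had an adjusted p under 0.05, and of all these probes 958 were higher and 1262 lower at an unadjusted p under 0.05. The lowest adjusted p was 0.2645 among these probes and 0.191 over all. COL9A2 was the 1 probe here at the study's threshold of a 2-fold change with an unadjusted p under 0.05, which 0.0726% of all tested probes reached as higher and 0.149% as lower.

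**Figure D1:**
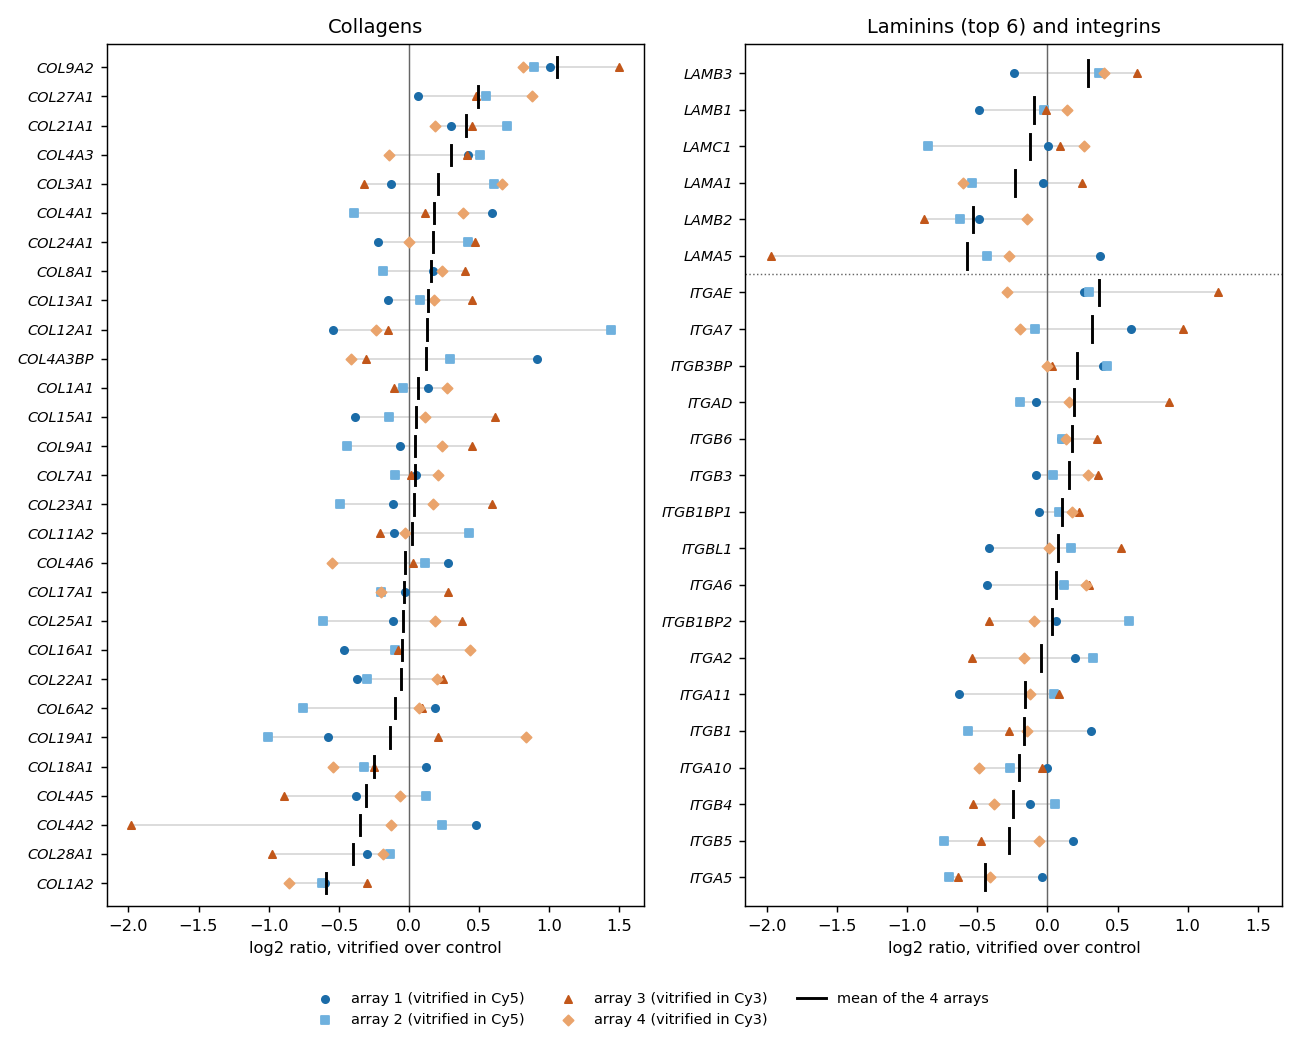
Log2 ratio of vitrified over control (x axis) on each of the 4 arrays for the 52 tested genes (y axis), each by its brightest tested probe, with the 29 collagens on the left and the 6 laminins and 17 integrins on the right. Symbols are arrays, coloured by the dye of the vitrified pool, and black bars are the mean of the 4 arrays. COL9A2 lies apart on the right (0.81 to 1.50), and the widest points to the left are COL4A2 and LAMA5 on array 3 (-1.98 and -1.97).

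COL9A2, which encodes a chain of type IX collagen on the surface of cartilage fibrils, had normalized log2 intensities of 11.08, 10.74, 10.95 and 11.00 in the vitrified pools of arrays 1 to 4. In the control pools of the same arrays it had 10.02, 9.88, 9.61 and 10.17. All 4 vitrified pools were thus above all 4 control pools, and in both dye orientations. The ratios were 1.01, 0.89, 1.50 and 0.81, and the log2 fold change was 1.05 (SE 0.17; 95% interval 0.68 to 1.43; unadjusted p = 0.00015), or 2.08-fold. The study chose this gene on these arrays, so its direction is not independent evidence. The other measured chain of type IX collagen had smaller values: the 3 probes of COL9A1 had log2 fold changes of 0.04, 0.13 and -0.18, with the brightest at -0.06, -0.44, 0.45 and 0.24 on arrays 1 to 4. COL9A3 was not tested.

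COL1A2, a chain of type I collagen, the main fibril of connective tissue, had normalized log2 intensities of 11.06, 10.63, 10.99 and 11.09 in the vitrified pools. The control pools had 11.65, 11.29, 11.37 and 11.93, so every control pool was above every vitrified pool. The ratios were -0.60, -0.62, -0.30 and -0.85, with a log2 fold change of -0.59 (SE 0.16; unadjusted p = 0.0048), which is 1.51-fold lower. COL1A1, which provides the other chain of the same trimer, had ratios of 0.14, -0.04, -0.11 and 0.27 and a log2 fold change of 0.07 (SE 0.15). It was above background in 4 of the 8 readings. COL3A1, another fibrillar collagen, was above background in 6, and its log2 fold change of 0.21 came from 2 arrays in each direction.

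COL27A1, a fibrillar collagen of cartilage, had ratios of 0.06, 0.55, 0.48 and 0.88, and a log2 fold change of 0.49 (SE 0.16; unadjusted p = 0.0146). COL21A1, a fibril-associated collagen, had ratios of 0.30, 0.70, 0.45 and 0.19 and a log2 fold change of 0.41 (SE 0.15; unadjusted p = 0.0268). Both were higher in the vitrified pool of every array, but the levels of the groups overlapped: vitrified pools ran from 7.98 to 9.25 and control pools from 7.67 to 8.37 for COL27A1, and from 8.03 to 8.97 and from 7.60 to 8.60 for COL21A1. COL28A1, which resembles the beaded filament collagens, had the opposite sign, with ratios of -0.30, -0.13, -0.98 and -0.19 and a log2 fold change of -0.40 (SE 0.17; unadjusted p = 0.0473). Only 3 of its 4 vitrified readings were above background, and its value rests on array 3, without which it was -0.20.

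**Figure D2:**
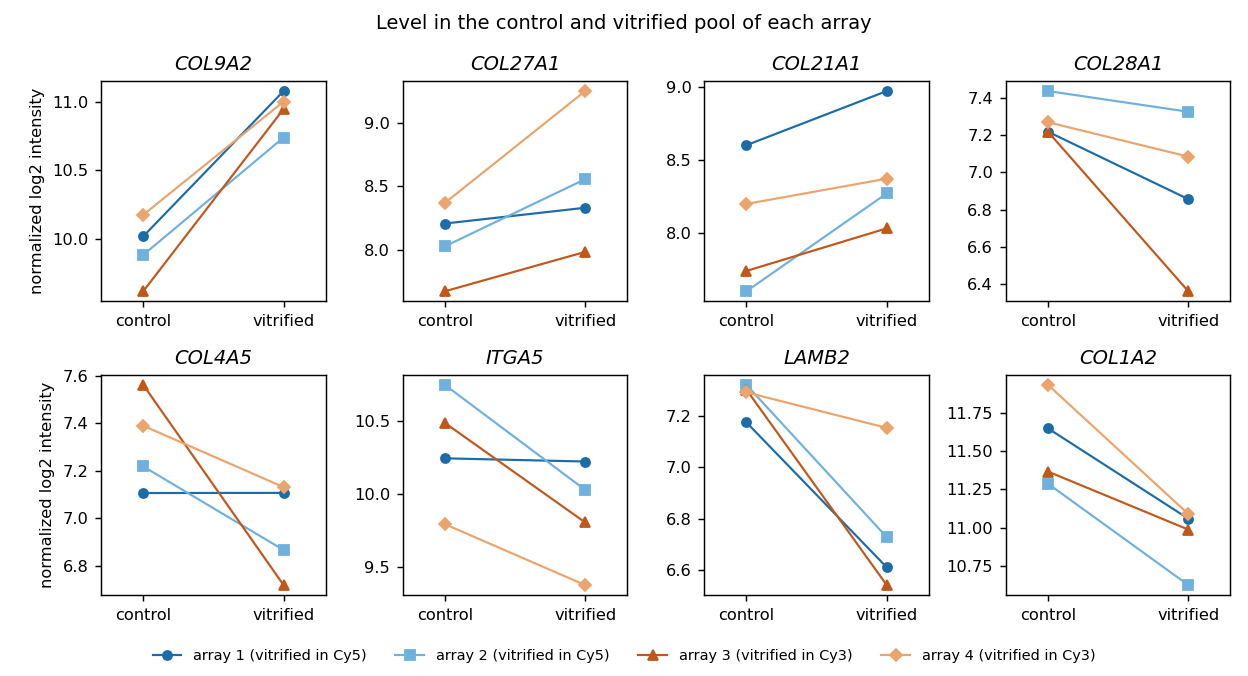
Normalized log2 intensity (y axis, which differs between panels and does not start at 0) in the control and the vitrified pool of each array for the 8 probes at an unadjusted p under 0.05. Each line joins the 2 pools of 1 array. COL9A2, COL1A2 and LAMB2 have no overlap between the 4 control and the 4 vitrified pools, and the other 5 probes overlap. The 8 probes were chosen by p on the same values, and the share of all tested probes without overlap is not given here.

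Type IV collagen is the sheet-forming collagen of basement membranes, and its main trimer has chains from COL4A1 and COL4A2. These 2 genes are neighbours in the bovine ARS-UCD2.0 assembly with 0 protein-coding genes between them, as are COL4A3 with COL4A4 and COL4A5 with COL4A6. COL4A1 had ratios of 0.60, -0.39, 0.12 and 0.39 (log2 fold change 0.18, SE 0.19) and COL4A2 had 0.48, 0.24, -1.98 and -0.13 (-0.35, SE 0.26). Neither had a direction common to the arrays. On array 3, COL4A2 was at 7.06 in the vitrified pool and at 8.69 in the control pool, while COL4A1 was at 11.29 and 11.23. Both tested probes of COL4A5 had a negative log2 fold change, -0.30 (unadjusted p = 0.136) for the brighter one and -0.41 (SE 0.17; unadjusted p = 0.0440) for the dimmer one, for which only 2 of 4 vitrified readings were above background. Array 3 had the lowest ratio in both (-0.89 and -1.01), and without it they were -0.10 and -0.22. COL4A6 was near 0 (-0.03), and COL4A3 was positive on 3 arrays (0.41 to 0.50) and negative on array 4 (-0.14), with a log2 fold change of 0.30 (SE 0.16). COL18A1, the basement membrane collagen that releases endostatin, had -0.25 (SE 0.16), with all 4 control readings but only 1 vitrified reading above background.

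COL12A1, a collagen on the surface of type I fibrils, had ratios of -0.54, 1.44, -0.15 and -0.23, so that it was lower in the vitrified pool on 3 arrays and higher on array 2. Its log2 fold change of 0.13 (SE 0.28) became -0.36 without array 2. On that array the fibroblast markers LUM, POSTN and THY1 had ratios of 2.93, 1.27 and 0.30. The summed normalized intensity of the 5 fibroblast markers was 1455 in the vitrified and 598 in the control pool. Over all arrays this sum ran from 609 to 1455 in vitrified and from 588 to 1182 in control pools, 1 of the 5 markers was above background in all 8 readings, and DCN and PDGFRB were above it in 3 and 2 readings. The part of such cells in the ratio of COL12A1 was not tested. The 14 tested genes of the collagen group not yet named with a value had log2 fold changes from -0.14 to 0.17, and none of their probes had an unadjusted p under 0.05.

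Laminins were the family with the largest share of genes on 1 side. Of the 6 tested genes, 5 had a negative log2 fold change, against 5660 of all 11417 tested genes. Among these 5, LAMB1 and LAMC1 changed sign when 1 of the arrays was left out. LAMB2, the beta chain that replaces LAMB1 in kidney and muscle basement membranes, had normalized log2 intensities of 6.61, 6.73, 6.54 and 7.15 in the vitrified pools and of 7.17, 7.32, 7.30 and 7.29 in the control pools. Every control pool was above every vitrified pool, although by little on array 4. The ratios were -0.49, -0.63, -0.88 and -0.14, with a log2 fold change of -0.53 (SE 0.17; unadjusted p = 0.0122). All 4 control readings but only 1 of 4 vitrified readings were above background. LAMB2 thus reached the 4 readings needed for testing through the control pools, the group in which it was higher. Its p and the size of its difference are therefore uncertain. LAMA5, the alpha chain of most epithelial basement membranes, had a log2 fold change of about the same size, -0.57 (SE 0.27; unadjusted p = 0.0602), but a different pattern. Its ratios were 0.38, -0.43, -1.97 and -0.27, with the vitrified pool of array 3 at 7.96 and the other 7 pools between 9.05 and 9.71. Without array 3 it had -0.15, and without array 4 it had -1.0 (unadjusted p = 0.00095).

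The chains of the laminin that is formed first in the mouse embryo, LAMA1, LAMB1 and LAMC1, differed less. LAMA1 had ratios of -0.03, -0.53, 0.24 and -0.60 (log2 fold change -0.23, SE 0.19). LAMB1 had -0.49, -0.02, -0.01 and 0.14 (-0.10, SE 0.16). The gamma chain gene LAMC1 had 3 tested probes, with log2 fold changes of -0.12, -0.29 and -0.17 and none at an unadjusted p under 0.05. Of these, the second was negative on all 4 arrays (-0.17, -0.32, -0.48 and -0.19), whereas the first, which was the brightest, had -0.85 on array 2 and between 0.00 and 0.26 on the others. The levels of the second did not overlap, with vitrified pools from 8.64 to 9.08 and control pools from 9.15 to 9.30. LAMB3, a chain of the laminin that anchors stratified epithelia, was the laminin gene with a positive value, 0.29 (SE 0.16), with -0.24 on array 1 and 0.37 to 0.64 on the others.

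Of the integrin subunits, ITGA5, which pairs with ITGB1 as the receptor for fibronectin, was the one with an unadjusted p under 0.05. It had normalized log2 intensities of 10.22, 10.03, 9.81 and 9.38 in the vitrified and of 10.24, 10.74, 10.48 and 9.79 in the control pools. The vitrified pool was lower on every array, with ratios of -0.04, -0.70, -0.64 and -0.41, but the levels of the 2 groups overlapped, and array 4 was low in both pools. Its log2 fold change was -0.45 (SE 0.17; unadjusted p = 0.0255). ITGB1, the shared beta subunit, had 0.31, -0.56, -0.27 and -0.15, or -0.17 (SE 0.18) in all, with 3 of 4 vitrified readings above background. FN1, the gene of fibronectin itself, had 1.01, 1.35, -0.89 and -1.09. Its sign thus turned with the dye orientation, which cannot be told apart from the pair of arrays.

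Among the receptors for laminin, ITGA6 was near 0 (0.06, SE 0.16) and ITGB4, its partner in the hemidesmosome, had -0.25 (SE 0.15; 1 of 4 vitrified and 3 of 4 control readings above background). ITGA7, the laminin receptor subunit of muscle, had 0.60, -0.09, 0.97 and -0.20 (0.32, SE 0.22). The 3 tested collagen receptor subunits, ITGA2, ITGA10 and ITGA11, had negative values from -0.20 to -0.05, none at an unadjusted p under 0.05. Of the beta subunits that pair with alpha V, ITGB5 had -0.27 (SE 0.19), which was -0.043 without array 2 and -0.50 without array 1 (unadjusted p = 0.0375). ITGB3 had 0.15 (SE 0.14), and ITGB6, whose product activates TGF beta, had 0.17 (SE 0.15) with a positive ratio on all 4 arrays (0.10, 0.11, 0.36 and 0.13). ITGAE, the subunit with which T cells bind E-cadherin, had 0.26, 0.30, 1.21 and -0.29, and its log2 fold change of 0.37 (SE 0.23) came to -0.0060 without array 3. ITGAD, another subunit of white blood cells, had 0.19 (SE 0.17), with 0.87 on array 3. The 4 tested genes that are not subunits had positive values from 0.03 to 0.21, among them ITGB1BP1, whose product binds the tail of ITGB1 (0.11, SE 0.15), and none had an unadjusted p under 0.05.

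Compared by array, the laminins had the lowest family median on arrays 1 to 3, and on array 4 the integrins did. The median ratio of the 6 laminin genes was -0.13, -0.48, 0.04 and -0.0030 on arrays 1 to 4. It was -0.06, -0.10, 0.12 and 0.17 for the 29 collagens and -0.0025, 0.06, 0.08 and -0.10 for the 17 integrins, while over all 11417 tested genes it was -0.04, 0.02, 0.02 and 0.0042. The collagen median exceeded the laminin median on 4 of 4 arrays, by 0.07, 0.38, 0.08 and 0.17 (mean 0.18, SD 0.15). The integrin median exceeded it on 3 of 4 (mean 0.15, SD 0.27), and collagens exceeded integrins on 2 of 4 (mean 0.02, SD 0.18). Members of a family share the arrays and are no replicates, so these differences were not tested. Over the log2 fold changes, the medians were 0.04 for collagens (17 positive, 12 negative), -0.18 for laminins (1 and 5), 0.06 for integrins (10 and 7) and 0.0023 for all genes. The integrin median turned to -0.05 when the 4 tested genes that are not subunits were left out, and the collagen median was -0.03 without array 1. The laminin median stayed below 0 without each array in turn, from -0.35 without array 1 to -0.11 without array 3.

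**Figure D3:**
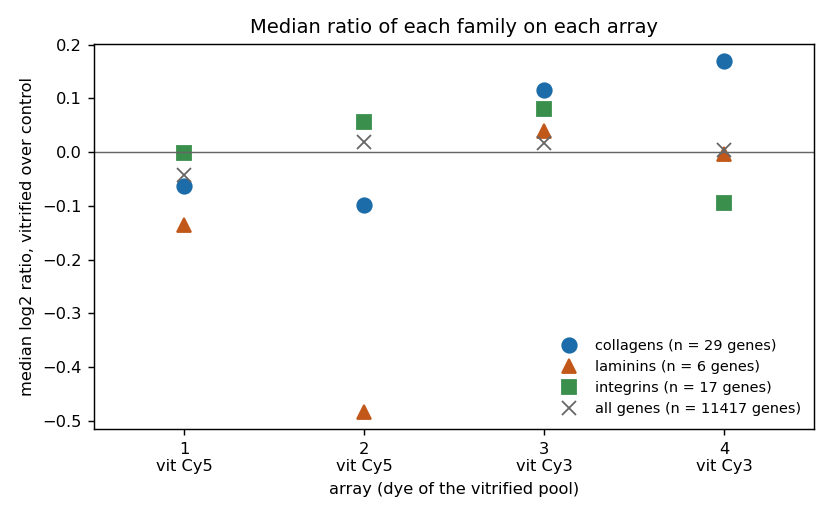
Median log2 ratio of vitrified over control (y axis) on each array (x axis, with the dye of the vitrified pool) for the 29 collagen, 6 laminin and 17 integrin genes that were tested and for all 11417 tested genes. The laminin median is far below the others on array 2 (-0.48), and on arrays 3 and 4 it lies near that of all genes.

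The arrays differed in spread. Over the 52 genes the SD of the ratios was 0.37, 0.48, 0.65 and 0.36 on arrays 1 to 4, and over all genes it was 0.37, 0.47, 0.57 and 0.33. On array 3, 4 of the 52 genes had a ratio beyond 1 in either direction (7.69%, against 7.59% of all genes): COL9A2 and ITGAE were higher in the vitrified pool, and COL4A2 and LAMA5 lower. The hypoblast markers HNF4A and GATA4 had ratios of -2.01 and 1.35 there, and the 4 measured hypoblast markers summed to 7903 in the vitrified and 15148 in the control pool, against 7401 to 12903 in all vitrified and 8750 to 15148 in all control pools. All 4 reached 4 or more readings above background. The other probes of HNF4A had 0.24 and -0.23. SOX17 had -0.23 on array 3, and PDGFRA had -0.54 in its brightest probe and -0.97 and 0.37 in the others. Of the 7 trophectoderm markers, which had a median of -0.67 on array 3 (hypoblast -0.39, inner cell mass 0.45), GATA2 had -1.29, KRT8 -1.01 and ELF5 -0.97. CDX2 had -0.67 and GATA3 -0.21, while TFAP2C (brightest probe) and KRT18 had 0.05 and 0.16. The inner cell mass markers did not share a direction on array 3. NANOG had -1.34, while POU5F1, PRDM14 (brightest probe), SOX2 and KLF4 had 1.0, 0.67, 0.45 and 0.20. The 7 trophectoderm markers summed there to 104387 in the vitrified and 139562 in the control pool. Over all arrays this sum ran from 99783 to 141033 in vitrified and from 99559 to 140880 in control pools. All 7 were above background in all 8 readings. The part of these cell types in the values of array 3 was not tested.

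Leaving out 1 array at a time separated the 8 genes at an unadjusted p under 0.05. COL9A2 kept its p under 0.05 in all 4 such fits (log2 fold change 0.88 to 1.23), and so did COL1A2 (-0.73 to -0.45). Without array 4, COL9A2 reached an adjusted p of 0.0279. In that fit 182 of all tested probes had an adjusted p under 0.05, against 0 with all 4 arrays. LAMB2 passed in 3 of 4 fits and had -0.35 without array 3 (unadjusted p = 0.0876). ITGA5, COL27A1, COL21A1 and COL4A5 each passed in 2 of 4, and COL28A1 in 1 of 4. ITGA5 had -0.28 without array 2 and COL27A1 0.37, and COL21A1 had 0.31 without that array. None of the 8 changed sign. All these fits kept the same filter on dim probes, which LAMB2, COL4A5 and COL28A1 met by control readings alone. They therefore cannot remove the part of the filter in those calls.

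**Figure D4:**
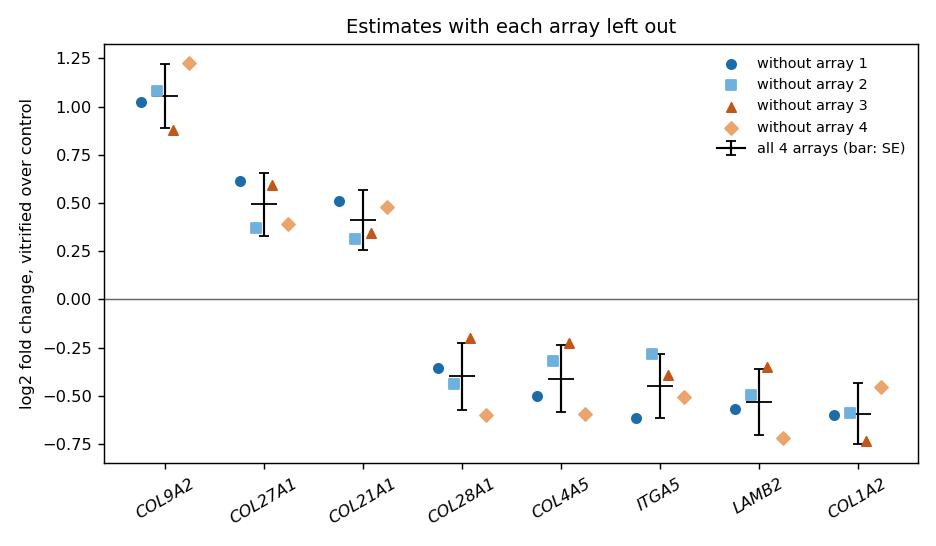
Log2 fold change of vitrified over control (y axis) for the 8 probes at an unadjusted p under 0.05, over all 4 arrays (horizontal tick, with the SE as a bar) and with each array left out (coloured symbols). COL9A2 stays between 0.88 and 1.23 and COL1A2 between -0.73 and -0.45, and COL28A1 and COL4A5 come nearest to 0 without array 3 (-0.20 and -0.22).

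Some ratios changed sign with the dye orientation, which cannot be told apart from the pair of arrays. COL19A1, a fibril-associated collagen, had -0.58 and -1.0 with the vitrified pool in Cy5 and 0.21 and 0.83 with it in Cy3. COL4A3BP had 0.91 and 0.29 and then -0.31 and -0.41. At an unadjusted p under 0.05 for the dye term there were 3 of the 59 probes, those of COL19A1, COL4A3BP and COL4A2, against 8.17% of all tested probes. A difference due to the dye would cancel in the mean over the swap. The log2 fold changes of COL19A1 and COL4A3BP were -0.14 (SE 0.17) and 0.12 (SE 0.16).

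Genes whose products fold, bind or anchor the 3 families were also compared. Of 76 such genes on the array, 62 were tested. By their brightest probe 5 were lower (NID1, AGRN, BCAM, LIMS2 and CD151) and 0 were higher at this unadjusted p of under 0.05. The lower ones were 8.06% of the tested genes, against 5.30% of all tested genes, and 3.49% of all tested genes were higher. Counted by probe, 8 of 78 were lower (10.3%, against 4.36% of all tested probes) and 0 higher (against 3.31%). None had an adjusted p under 0.05. Over the 62 genes the median log2 fold change was -0.12 (0.0023 over all genes), and 37 were negative and 25 positive. By array it was -0.06, -0.0043, -0.29 and -0.06, so that it was lowest on array 3.

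In the basement membrane and matrix list, 3 of 17 genes were lower at an unadjusted p under 0.05 (over all genes, 5.30%), and 9 of the 17 had a negative value. NID1, which encodes nidogen, the link between laminin and type IV collagen, had ratios of -1.09, 0.45, -1.55 and -0.53 and a log2 fold change of -0.68 (SE 0.26). AGRN, which encodes the laminin-binding proteoglycan agrin, had -0.11, -0.89, -1.08 and -0.18 (-0.56, SE 0.20), and BCAM, the laminin receptor of the Lutheran blood group, had -0.46, -0.76, -0.96 and 0.00083 (-0.54, SE 0.19; 3 of 4 vitrified readings above background). Of these 3 genes, AGRN was lower in the vitrified pool on all 4 arrays. HSPG2, the gene of the basement membrane proteoglycan perlecan, had the opposite sign (0.30, SE 0.21; -0.024 without array 3), and the list as a whole had a median of -0.04.

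Of 21 tested genes whose products bind integrins or their adaptors inside the cell, LIMS2, an adaptor of integrin-linked kinase, was lower, with ratios of -0.19, -1.0, -0.79 and -0.26 and a log2 fold change of -0.56 (SE 0.18). The probes of a gene did not always match: 2 of the 4 probes of FERMT2, which encodes the integrin activator kindlin, had an unadjusted p under 0.05 (-0.41 and -0.56), while its brightest had -0.21 and another 0.06. ACTN4, an actin crosslinker, also did so in its dimmer probe (-0.41) and had -0.25 in its brighter one. Of 4 tetraspanins, CD151, which binds laminin-binding integrins, had -0.20, -0.39, -1.59 and -0.15 (-0.58, SE 0.23), and was lower on all 4 arrays. Each of the 5 lower genes kept its p under 0.05 in 2 of the 4 fits without 1 array. NID1 had -0.29 without array 1, LIMS2 -0.36 without array 2, and AGRN, BCAM and CD151 had -0.34, -0.30 and -0.22 without array 3. The 20 tested genes of collagen folding and processing had a median of -0.13 and none at an unadjusted p under 0.05. They included SERPINH1, the collagen chaperone (0.36, SE 0.16; unadjusted p = 0.0504), and P4HA2, a prolyl hydroxylase subunit, whose 3 probes had -0.32, -0.30 and -0.29.

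**Figure D5:**
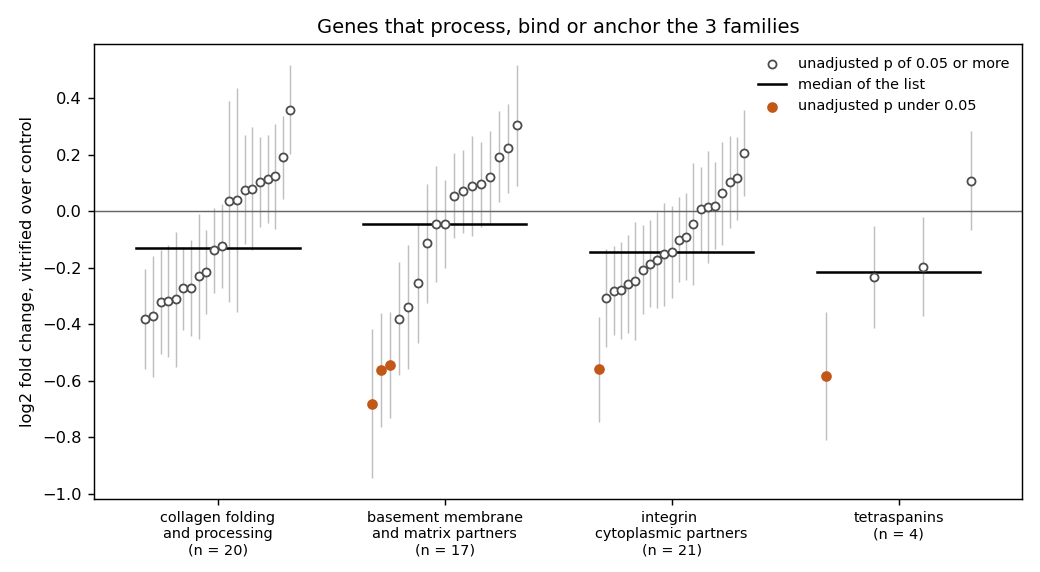
Log2 fold change of vitrified over control (y axis) with its SE for the 62 tested partner genes in 4 lists (x axis), each by its brightest probe and sorted within its list, with the list median as a black line. Filled points are the 5 genes at an unadjusted p under 0.05, and all 5 lie between -0.68 and -0.54.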

How the data were processed

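The deposited spot intensity values were the scanner's median signal and local background of either dye, with nothing subtracted by the authors. The authors also deposited normalized log2 ratios (background subtraction, lowess, quantile), which are Cy5 over Cy3 on each array and not turned for the dye. They had a correlation of at least 0.9989 with loess ratios before quantile normalization, and served as an alternative.

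Background was subtracted (floor 0.5), and ratios were normalized by loess and quantile normalization in limma 3.58.1 (R 4.3.3) and turned to vitrified over control. Tests were run on 28944 of 43794 probes, those with 4 or more of 8 readings over a level set at 2 SD above the mean of 153 negative controls, in a model with a dye term (2 residual, 6.80 prior degrees of freedom), two-sided, with Benjamini-Hochberg adjustment. Normalized intensities per pool combine the loess ratios with quantile-normalized mean intensities, so their differences depart slightly from the ratios. Precision is limited by having 4 arrays, and pools of different arrays came from separate cycles by the Methods. A gene took its brightest tested probe. In the RefSeq genes of ARS-UCD2.0, 76 of the 78 symbols matched a current name and 2 an older one.

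Members, lists and tests were chosen with earlier results of these data known. Named genes were COL9A2, which the study names, genes with a tested probe at an unadjusted p under 0.05, the 4 brightest tested genes of each family, genes of the embryonic basement membrane and its receptors, and partner genes at an unadjusted p under 0.05. COL9A1, COL1A1, COL3A1, COL4A3, COL4A6, COL19A1, COL4A3BP, COL6A2, LAMB3, ITGA2, ITGA10, ITGA11, ITGAD, ITGB3, ITGB6, FN1, HSPG2, SERPINH1 and P4HA2 were added after their values were seen. The fit was tested on simulated data. As alternatives, the background was corrected by normexp (offset 50) or not at all, the filter on dim probes was dropped or made stricter, arrays were median-centred, quantile normalization or the dye term was left out, the authors' ratios were used, the channels were fitted separately, eBayes was run with a trend and robustly or replaced by a plain t-test, other sets of probes or genes were taken, and single arrays were left out.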

Additional observations from a re-analysis of the deposited data

Results flagged for a closer look

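Of the 52 tested genes and 3 family medians, 55 values in all, examined for an array that stands apart from the other 3, 3 had one, and chance alone gives about 1 in 20. COL4A3 had -0.14 on array 4 and 0.41 to 0.50 on the others. COL6A2, a chain of type VI collagen, had -0.76 on array 2 and 0.07 to 0.19 on the others. ITGB6 had 0.36 on array 3 and 0.10 to 0.13 on the others, all in the same direction.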

How the results depend on the processing

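The count of 3 higher probes became 1 with separate channels. The count of 5 lower ones became 3 with normexp correction, with no dye term, with separate channels and with a plain t-test on the 4 ratios, and 2 when all 8 readings had to be above background. Without 1 array in turn these counts ran from 1 to 5 and from 2 to 8, those over all probes from 530 to 1967 higher (958 with all arrays) and from 593 to 2345 lower (1262; 787 with the plain t-test), and those at an adjusted p under 0.05 from 0 to 1 among these probes and from 3 to 182 over all (2 with an intensity trend and a robust fit). In such fits the single array of a dye orientation weighs as much as the other pair. COL9A2 left the study's threshold without array 3 (count 0 to 1). The integrin median of 0.06 was -0.020 with dim probes kept, -0.046 for subunits only, and from -0.043 to 0.15 without 1 array. All tested partner probes gave 8 lower in place of 5 genes. Without 1 array the sign turned for COL12A1 (-0.36 to 0.63), COL4A1 (-0.069 to 0.42), COL4A2 (-0.81 to 0.11), LAMB1 (-0.21 to 0.020), LAMC1 (-0.34 to 0.091), ITGA6 (-0.075 to 0.20), ITGAE (-0.0060 to 0.75), ITGB1 (-0.39 to 0.051), COL9A1 (-0.050 to 0.14), COL1A1 (-0.029 to 0.16), COL3A1 (-0.042 to 0.45), COL4A3BP (-0.033 to 0.28), COL4A6 (-0.17 to 0.11), COL6A2 (-0.34 to 0.13), COL19A1 (-0.29 to 0.021), ITGA2 (-0.14 to 0.047), ITGA11 (-0.33 to 0.013), HSPG2 (-0.024 to 0.63) and ACTN4 (-0.56 to 0.069). The cause was not tested. No other setting turned the sign of these or of the genes named by the rule, and the further, dimmer probes of COL9A1, LAMC1 and P4HA2 were not recomputed. COL9A2 and COL1A2 passed an unadjusted p under 0.05 in all 11 other settings, LAMB2 in the 10 that kept it, and COL21A1, COL27A1 and ITGA5 in 10, 9 and 9 of 11. COL4A5 and COL28A1 passed in 5 and 4 of 10. The ratios pair the pools of an array, and the separate channels leave out that pairing. Probes not above background limit LAMB2, COL18A1, COL4A5, COL28A1 and ITGB4. For LAMB2, COL18A1, COL28A1 and the dimmer tested probe of COL4A5, the 4 control readings alone met the filter, and their level was higher in the controls. COL4A2, ITGA2, ITGB1, BCAM and the dimmer probe of ACTN4 also had all 4 control but only 3 vitrified readings above background. Their log2 fold changes were negative. Calls among all these probes, with BCAM and ACTN4, are therefore not independent of the filter.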
